A study of Mus musculus with 6 samples.

Results

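The proteasome genes of sorted stromal cells from mouse hind limb muscle were followed from untreated muscle to day 3 after cardiotoxin injury. They are the protein-coding genes whose mouse symbol begins with Psm, then a letter from a to g and a number, without the immunoproteasome genes Psmb8, Psmb9 and Psmb10. The rule found 47 of the 22483 genes in the table, and 46 of them were among the 15532 genes tested. The name rule is not a functional one, since Psmc3ip encodes a partner of the meiotic recombination machinery and no part of the proteasome. It is kept as a member and described apart.

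All libraries came from Swiss white mice 8 to 12 weeks old. The injury group received 20 uM cardiotoxin, a venom toxin that lyses muscle fibers, and the control group was the untreated muscle of the other side. Cells positive for CD45, CD31 or CD11b were gated out, and the rest were sorted by CD140a and Sca1 as CD140a(+)/Sca1(-), as CD140a(-)/Sca1(+) or as double positive, CD140a(+)/Sca1(+), with 1 library per sort and state, 6 in all. The methods give 5 mice for acute injury and do not say how many entered a library, and isolated cells rested for 8 h at 37 degrees before staining, according to the same source. The labels give the tibialis anterior, while the text of the study names the gastrocnemius and soleus for acute injury. Each subpopulation was sequenced once per state. The injury comparison therefore used the 3 subpopulations as its replicates, and its p values measure the spread between them. Because cells were pooled before extraction, fewer cells of a type and less RNA per cell cannot be told apart.

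The proteasome is the chamber in which cells degrade proteins marked with ubiquitin. Its core particle, the 20S, is a barrel of alpha rings that gate the entrance and beta rings that carry the cutting sites. The 19S regulatory particle caps the barrel, binds and removes the ubiquitin chain, and uses a ring of ATPases to unfold the substrate and push it inside. Other members open the barrel without ubiquitin, inhibit it, or help to assemble it and do not remain in the finished particle.

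The libraries differed in depth and in content before any proteasome gene was compared. From the step between low values the depth was estimated at 2094368 to 14173404 reads. The injured CD140a(+)/Sca1(-) library differed most from the rest, with 69.1% of all genes listed at 0 against 28.2% to 39.0% in the other 5. Of genes that reached 20 normalized counts in every other library it held 17.6% at 0, and it held 6 of 35 proteasome genes at 0 at that level. Of the tested genes, 15 of 46 members were listed at 0 in it (32.6%), against 55.3% of all genes tested. The sort markers went partly against the labels. Pdgfra, which encodes CD140a, stood at 211 normalized counts in CD140a(-)/Sca1(+) control cells. The CD140a(+)/Sca1(-) and the double positive controls were lower, at 33.6 and 26.3. After injury Pdgfra stood at 335 in CD140a(-)/Sca1(+) cells, above the 203 of CD140a(+)/Sca1(-) and below the 1240 of double positive cells. Ly6a, which encodes Sca1, was at 70.4 and 2.09 in the control and injured CD140a(+)/Sca1(-) libraries and at 253 to 5850 in the Sca1(+) ones. Of the gate genes, Ptprc (CD45) lay between 0 and 20.49, Pecam1 (CD31) between 0 and 105 and Itgam (CD11b) between 8.48 and 27.5 normalized counts.

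Promoter sequence is shown for 3 of the members that fell after injury and for 2 of the cutting subunits, because proteasome genes are known to share control by the factors NRF1 and NRF2, which bind antioxidant response elements, and many use the CCAAT box bound by NF-Y. RefSeq promoter windows (GRCm38.p6) were found for 39 of the 47 members, and the 250 bases before the start site were searched on both strands for TGACNNNGC and for CCAAT. A match to one motif may overlap a match to the other. The stretches below are written 5′ to 3′ on the strand of the gene, with the motif in capitals, and a motif on the opposite strand appears as its reverse complement.
Psmb3 (chr11:97703329-97703415, plus strand): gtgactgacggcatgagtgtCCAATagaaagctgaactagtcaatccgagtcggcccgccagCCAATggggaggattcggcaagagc
Psmc1 (chr12:100110007-100110051, plus strand): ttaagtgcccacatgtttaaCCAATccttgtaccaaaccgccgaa
Psmd14 (chr2:61711515-61711559, plus strand): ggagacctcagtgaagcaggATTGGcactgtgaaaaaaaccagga
Psmb5 (chr14:54618014-54618062, minus strand): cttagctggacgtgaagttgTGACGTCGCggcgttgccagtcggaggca
Psmb6 (chr11:70525328-70525356, plus strand): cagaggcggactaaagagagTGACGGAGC

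Psmb3 carried CCAAT at -85 and -43 from its RefSeq start, Psmc1 at -175, and Psmd14 the reverse complement at -159. Psmb5 and Psmb6 carried the antioxidant response element core at -47 and -9. CCAAT was found in 14 of 39 members (35.9%) and in 37.5% of all 27025 genes with a window. The element core was found in 5 members (12.8%), namely Psmb5, Psmb6, Psmc6, Psmd9 and Psmd12, and in 11.5% of all genes. The shares of members thus lay close to those of all genes. Of the other members that fell, Psmd2 had neither motif in its window and Psmd3 was not matched. A letter match is a description and not a binding site, and the rest of the promoter was not searched.

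The summed proteasome genes took a smaller share of each injured library than of its control. All 47 genes together made up 1.16% of the control CD140a(+)/Sca1(-) library, 0.739% of CD140a(-)/Sca1(+) and 1.13% of CD140a(+)/Sca1(+). After injury the shares were 0.492%, 0.463% and 0.704%, and the injured libraries all lay below the controls. The ratio of injury to control was 0.425 in CD140a(+)/Sca1(-) (95% interval 0.416 to 0.435), 0.627 in CD140a(-)/Sca1(+) (0.620 to 0.633) and 0.620 in CD140a(+)/Sca1(+) (0.610 to 0.631). These intervals are exact binomial intervals from estimated reads and cover counting error only. In control muscle the CD140a(-)/Sca1(+) cells had the lowest share of the 3 subpopulations.

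The groups by role did not move alike. The 33 subunits of the 20S and 19S took 1.09%, 0.665% and 1.09% of the control libraries, in the same order of subpopulations, and 0.453%, 0.425% and 0.632% of the injured ones. The 7 assembly chaperones went from 0.0334% to 0.0177% and from 0.0411% to 0.0219% in the first and second of these, but from 0.0158% to 0.0382% in CD140a(+)/Sca1(+), a ratio of 2.42 (2.16 to 2.72). The 6 activators and inhibitor genes had ratios of 0.816, 0.529 and 1.10, and the last interval (0.994 to 1.22) includes no change. With 1 library per subpopulation and state there is no test of these differences.

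**Figure D1:**
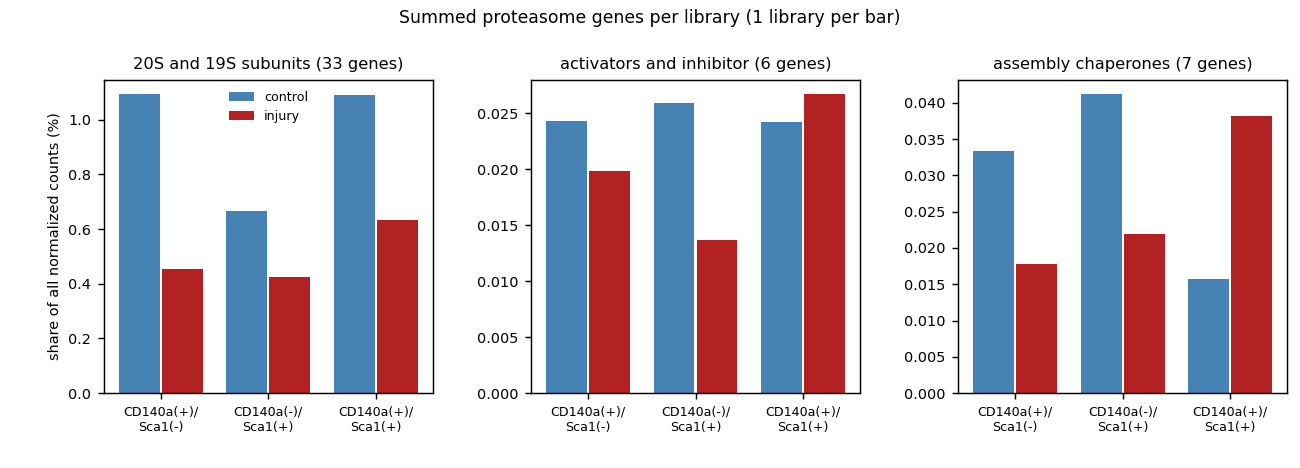
Share of all normalized counts, in percent, taken by the 20S and 19S subunits, the activators and inhibitor, and the assembly chaperones, with 1 bar per library (blue control, red injury) and a separate axis from 0 in each panel. The subunits are lower in the injured library of every subpopulation, while the chaperones of CD140a(+)/Sca1(+) stand at 0.0158% in control and 0.0382% after injury.

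In the injury comparison, 5 members fell and 0 rose when a p under 0.05 and a 3-fold change were asked of limma's fit to the deposited log2 values with subpopulation as block. They were Psmb3, Psmc1, Psmd2, Psmd3 and Psmd14, that is 5 of 46 tested (10.9%), where 3.46% of all genes tested fell and 2.3% rose by the same rule. With a p under 0.05 alone, Psma7 and Psmd11 were added, so that 7 members were lower (15.2%) and 0 higher, against 5.06% and 2.93% of all genes. No gene of the table had an adjusted p under 0.05 (limma, lowest 0.192), among 1241 with an unadjusted p under 0.05. Only Psmb3 remained called without the CD140a(+)/Sca1(-) pair, where 2.65% of all genes fell. Without the CD140a(-)/Sca1(+) pair Psmb3 and Psmd3 were called, against 3.23% of all genes, and without the CD140a(+)/Sca1(+) pair 8 members were, against 3.62%. The share of members called also depended on the scale. With log2 of the normalized count plus 1, 2 of 46 members fell (4.35%) against 5.58% of all genes, with plus 0.5 it was 1 (2.17%) against 5.84%, and with equal library totals 2 (4.35%) against 5.34%, so the members' share was then below that of all genes. The balance over all genes turned with the scaling: median centring called 7.84% higher and 1.15% lower, and equal 75th percentiles 0.985% higher and 8.58% lower.

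The direction extended beyond the called genes. The fitted change was below 0 for 43 of 46 members, with a median of -0.83 on the log2 scale, while it was below 0 for 10470 of the 15532 genes tested, with a median of -0.33. Without the CD140a(+)/Sca1(-) pair, the median of the 46 members was -0.55, against -0.05 for all genes. Among genes whose 80th percentile reached 100 normalized counts, the median of the 37 members was -0.84, and the median of the 4111 genes was -0.04. Equal medians in all libraries raised the median of all genes to 0.39, and the median of the 46 members was then -0.10. In the pairs taken singly, 24 members (52.2%) were lower after injury in all 3 subpopulations and 1 was higher in all 3, where 20.2% and 7.92% of all genes tested were. The 3 injured libraries lay wholly below the 3 controls for 11 members (23.9%), against 11.2% of all genes tested, and wholly above for 0, against 4.18%.

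Counted within each pair, the subpopulations differed in how many members moved. In CD140a(+)/Sca1(-), 43 of 46 members were lower after injury (65% of all genes tested), 30 of them by at least 2-fold (38% of all genes) and 1, Psme1, was at least 2-fold higher (14.1%). In CD140a(-)/Sca1(+), 42 members were lower (61.3% of all genes), 17 of them by at least 2-fold (30.1%) and 1, Psme4, was at least 2-fold higher (12.9%). In CD140a(+)/Sca1(+), 27 members were lower (44.5% of all genes), 8 by at least 2-fold (21.4%) and 7 were at least 2-fold higher (27.1%). Psmb3 and Psmd3 were at least 2-fold lower in every pair. The share of all genes tested that met this in every pair was not counted, so an excess among the members is not known. Psmd3 was listed at 0 in injured CD140a(+)/Sca1(-) cells, as were 55.3% of all genes tested. In the 2-fold counts a gene with 3 reads or fewer was set to 3 reads of its library. A gene at or under that floor in both libraries of a pair counted as not called. The counts of lower genes without a fold limit used the deposited log2 values without this floor. No test stands behind any of these counts.

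**Figure D2:**
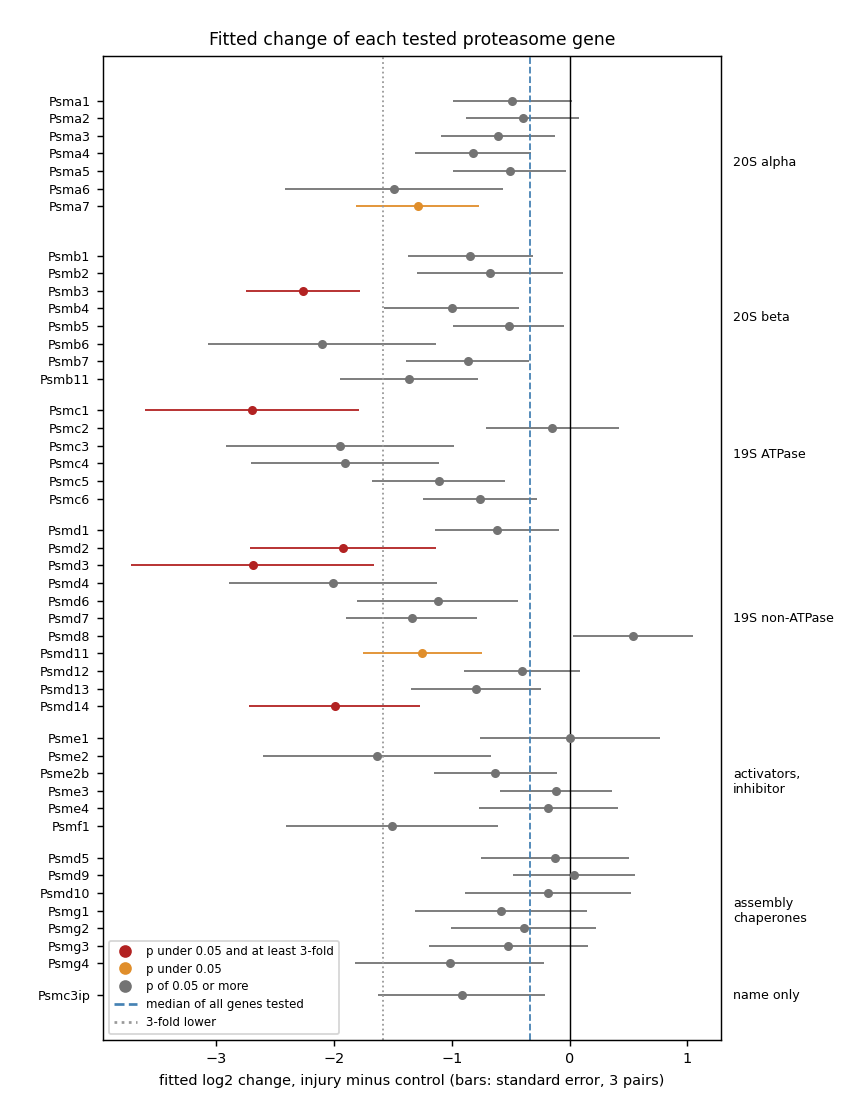
Fitted log2 change from control to injury for each of the 46 tested proteasome genes, grouped by role, with bars for the standard error over 3 pairs, the median of all genes tested (-0.33, dashed) and the 3-fold line (dotted). The 5 red points passed p under 0.05 with a 3-fold change, the 2 orange points p under 0.05 only, and 43 points lie left of 0.

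Values below are normalized counts in the order CD140a(+)/Sca1(-), CD140a(-)/Sca1(+) and CD140a(+)/Sca1(+). They come from reads at the 3' end of transcripts and are compared between libraries, not between genes. A gene listed at 0 had no read in that library.

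In the beta ring, 1 of 8 tested members fell, against 3.46% of all genes. Psmb3, a structural beta subunit (ENSMUSG00000069744, chr11:97703399-97713500 in GRCm38), had 459, 639 and 1681 normalized counts in the control libraries and 98.1, 144 and 265 in the injury libraries. All 3 injured libraries were lower than all 3 controls, and the control of CD140a(+)/Sca1(+) was the highest. The ratio of injury to control was 0.214 (0.172 to 0.264), 0.224 (0.209 to 0.241) and 0.158 (0.143 to 0.174), that is 4.67-, 4.45- and 6.33-fold lower. The fitted change was -2.26 on the log2 scale (SE 0.48, limma, adjusted p = 0.393). Endothelial markers moved with it: 11 of 15 fell, against 3.46% of all genes. Their summed level went from 3476, 4934 and 32713 to 208, 305 and 648 normalized counts, with Pecam1 at 0, 1.39 and 1.51 after injury. Fabp4 alone held 2590, 2318 and 29146 of the control sums and 156, 47.2 and 298 of the injured ones. Red blood cell markers fell in 4 of 6 cases, their sum going from 1980, 697 and 12161 to 0, 5.41 and 666. The part of either in the result was not tested.

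The cutting subunits were lower without passing the test. Psmb5, with the chymotrypsin-like site, had 523, 185 and 349 in control and 387, 118 and 239 after injury. Psmb6, with the caspase-like site, had 146, 124 and 71.5 in control and 0, 24.4 and 94.9 after injury. Psmb7, with the trypsin-like site, had 8.35, 12.4 and 14.1 in control and 0, 7.89 and 6.36 after injury. Psmb5 was lower in every pair although the groups overlapped, Psmb6 was lower in 2 pairs and higher in CD140a(+)/Sca1(+), and the injured libraries of Psmb7 lay wholly below its controls at few reads. The 3' end of Psmb7 is overlapped by Nek6 on the opposite strand, and since no source used here states whether counting used strand, reads from this pair cannot be told apart.

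The immunoproteasome genes Psmb8, Psmb9 and Psmb10, which replace these cutting subunits and were left out by the rule, did not pass the test in either direction. Psmb8 had 5.14, 206 and 5.30 in control and 0, 13.6 and 191 after injury. Psmb9 had 3.72, 105 and 6.81 in control and 0, 12.1 and 73.9 after injury. For both, the control CD140a(-)/Sca1(+) library held the highest level and the injured CD140a(+)/Sca1(+) library the next. Psmb10 had 0, 75.7 and 5.30 in control and 96.2, 4.97 and 32.3 after injury, and was highest in injured CD140a(+)/Sca1(-) cells, where the other two were listed at 0.

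The remaining beta subunits varied between the pairs. Psmb1 had 1352, 1165 and 899 in control and 617, 433 and 891 after injury, and Psmb4, another structural subunit, had 2004, 1576 and 1450.3 and then 463, 914 and 1311. Psmb2 had 48.8, 53.8 and 103 in control and 26.5, 7.75 and 155 after injury. For Psmb1 and Psmb4 the groups did not overlap, but in CD140a(+)/Sca1(+) the ratios were 0.991 and 0.904, while Psmb2 was higher there by a ratio of 1.503 (1.21 to 1.88). Psmb11, the beta subunit known from the thymic cortex, had 22.5, 32.4 and 34.4 in control and 0, 20.8 and 10.6 after injury, again without overlap.

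The alpha ring, which forms the gate of the barrel, was lower on average in all 7 tested genes, with a median fitted change of -0.61 on the log2 scale. Psma7 had 534, 281 and 667 in control and 127, 116 and 409 after injury, and was lower in every pair although the groups overlapped (fitted change -1.29, SE 0.52, limma, adjusted p = 0.623). Psma2 had 1850.4, 1539 and 2233 and then 1705, 1112 and 1453, and Psma3 had 2209, 1062 and 2379.9 and then 1528, 832 and 1225. Psma4 and Psma5 were also lower in every pair, with values of 652, 250.4 and 644 before and 272, 134 and 491 after injury for Psma4. Psma5 had 336, 134 and 414 in control and 199, 105 and 295 after injury.

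Psma1 and Psma6 were lower in 2 pairs and level in CD140a(+)/Sca1(+). Psma1 had 159, 95.2 and 132 in control and 118, 39.6 and 133 after injury. Psma6 had 104, 83.1 and 100.4 in control and 0, 68.8 and 104 after injury. Their ratios in CD140a(+)/Sca1(+) were 1.01 (0.822 to 1.25) and 1.03 (0.815 to 1.31). Psma8, an alpha subunit known from testis, was the member that was not tested, listed at 2.25 normalized counts in CD140a(-)/Sca1(+) control cells and at 0 in the other 5 libraries.

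**Figure D3:**
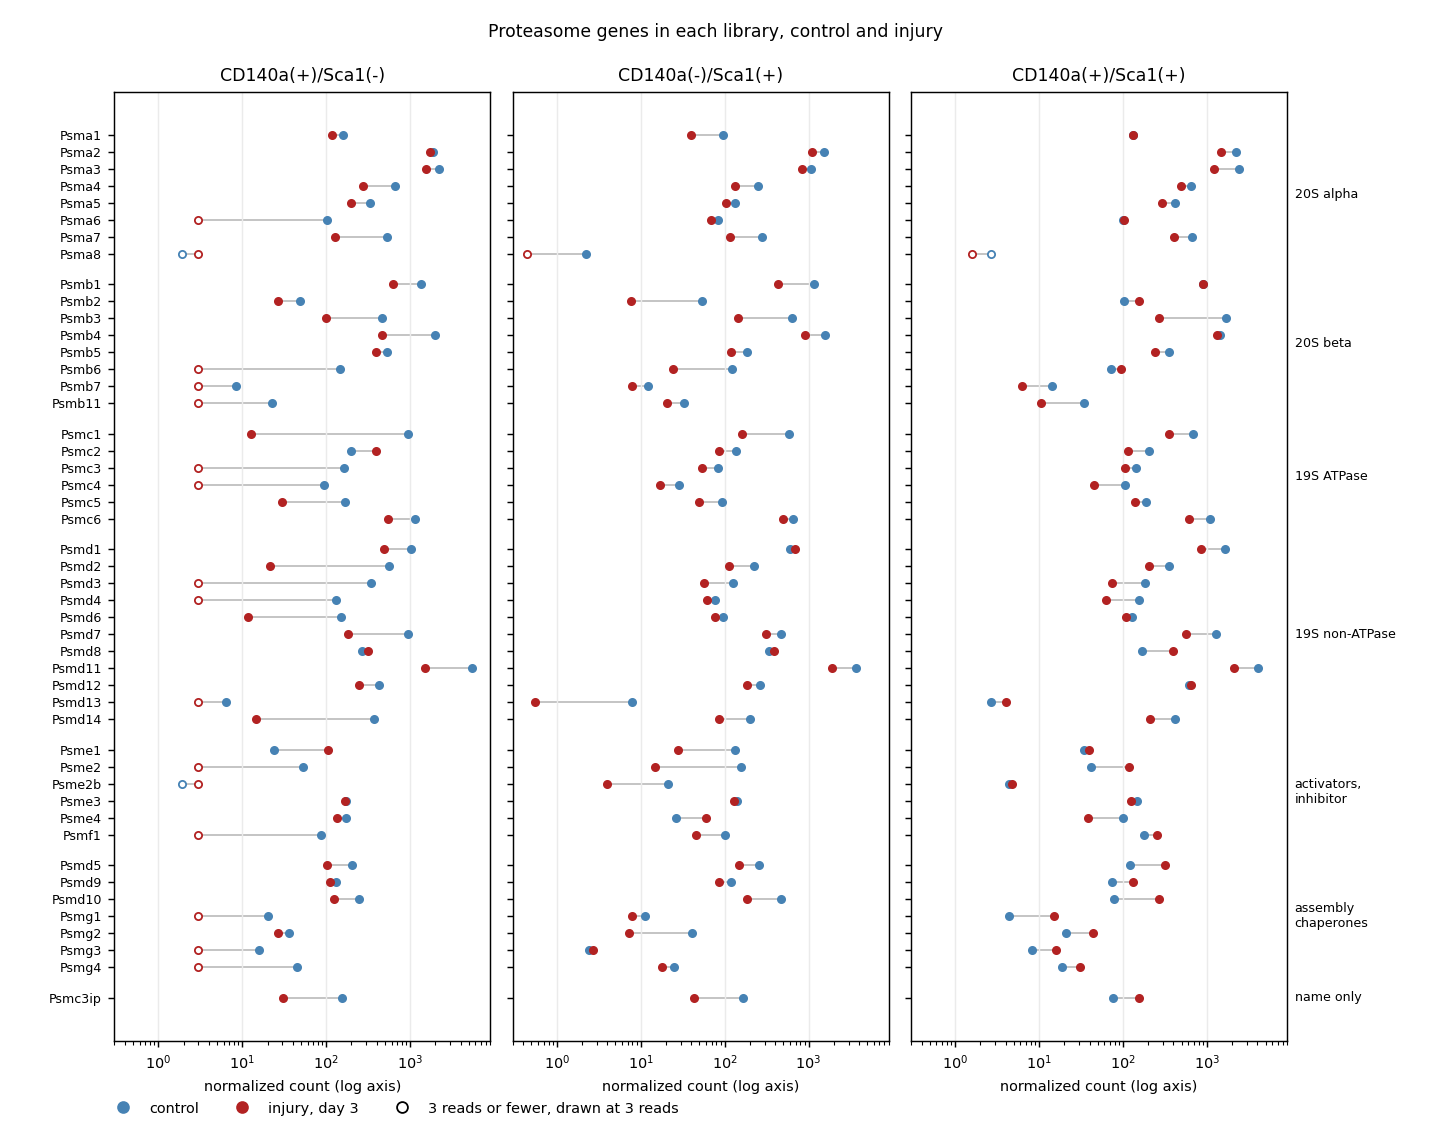
Normalized count on a log axis of each of the 47 genes in the control (blue) and injured (red) library of each subpopulation, grouped by role, with open circles for 3 reads or fewer, drawn at 3 reads. Open red circles gather in CD140a(+)/Sca1(-), where 15 of 46 tested genes are listed at 0 after injury, and the chaperones of CD140a(+)/Sca1(+) lie to the right of their controls.

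The ATPase ring of the 19S had a median fitted change of -1.51 with all pairs and -0.65 without the CD140a(+)/Sca1(-) pair. Psmc1 (ENSMUSG00000021178, chr12:100110154-100123405) had 935, 590.1 and 681 in control and 12.8, 160.5 and 354 after injury, with every injured library below every control. The ratios were 0.0137 (0.00725 to 0.0234), 0.272 (0.254 to 0.291) and 0.520 (0.468 to 0.578), so the fall differed widely in size among the pairs (fitted change -2.69, SE 0.91, limma, adjusted p = 0.560). Without the CD140a(+)/Sca1(-) pair the fitted change of Psmc1 was -1.36 and did not reach 3-fold.

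Psmc3, Psmc4 and Psmc5 were lower in every pair. Psmc3 had 165, 84.2 and 142 in control and 0, 54.2 and 105 after injury, and Slc39a13 overlaps its 3' end on the opposite strand. Psmc4 had 93.1, 28.5 and 105 in control and 0, 16.8 and 45.0 after injury. Psmc5 had 169.8, 92.3 and 188 in control and 29.6, 49.99 and 138 after injury. The groups of these 3 genes overlapped, and none of them passed the test.

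Psmc6 and Psmc2 differed from each other. Psmc6 had 1146, 658 and 1087 in control and 541, 498 and 610.1 after injury, with no overlap. Psmc2 had 197, 136 and 206 in control and 391, 85.5 and 116 after injury. It was the ATPase gene that was higher in injured CD140a(+)/Sca1(-) cells, by a ratio of 1.98 (1.70 to 2.31), and lower in both other pairs.

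Among the 19S subunits without ATPase activity, 3 of 11 fell and 0 rose, against 3.46% and 2.3% of all genes. Without the CD140a(+)/Sca1(-) pair 0 of the 11 passed limma's test, also at an unadjusted p under 0.05 alone. Psmd14, the enzyme that cuts the ubiquitin chain from the substrate (ENSMUSG00000026914, chr2:61711694-61800376), had 369, 203 and 413 in control and 14.7, 85.8 and 212 after injury. It was lower in every pair, although the injured CD140a(+)/Sca1(+) library lay just above the control of CD140a(-)/Sca1(+) (fitted change -1.99, SE 0.73, limma, adjusted p = 0.586). The fitted change was -1.03 without the CD140a(+)/Sca1(-) pair. Its ratios were 0.0399 (0.0222 to 0.0663), 0.424 (0.382 to 0.469) and 0.513 (0.448 to 0.588). Psmd7, its partner in the lid, had 935, 473 and 1275 in control and 182, 316 and 562 after injury.

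Psmd2 and Psmd3 also fell. Psmd2, a scaffold of the 19S base that docks ubiquitin-binding factors (ENSMUSG00000006998, chr16:20651652-20663414), had 553, 222 and 354 in control and 21.6, 113 and 206 after injury (fitted change -1.93, SE 0.79, limma, adjusted p = 0.623). Psmd3, a lid subunit (ENSMUSG00000017221, chr11:98682554-98695979), had 342, 125 and 183 in control and 0, 57.2 and 74.7 after injury (fitted change -2.69, SE 1.03, limma, adjusted p = 0.605). Without the CD140a(+)/Sca1(-) pair the fitted changes were -0.83 for Psmd2 and -1.08 for Psmd3, and neither passed the test. For both genes the injured libraries lay wholly below the controls. In CD140a(+)/Sca1(-) Psmd2 was 25.6-fold lower and Psmd3 at least 116-fold lower, the latter a bound set by 3 reads of that library. In the other pairs the ratios were 0.511 and 0.582 for Psmd2 and 0.457 and 0.409 for Psmd3.

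Psmd11, a lid subunit that braces the 19S against the 20S, had 5465, 3699.9 and 4063 in control and 1523, 1902 and 2087 after injury, with no overlap (fitted change -1.25, SE 0.50, limma, adjusted p = 0.623). Its ratios of 0.279, 0.514 and 0.514 show a like change in both Sca1(+) subpopulations. Psmd4, a receptor for ubiquitin chains, had 129.6, 77.6 and 154 in control and 0, 61.4 and 62.8 after injury, also without overlap. Psmd6, a lid subunit, had 148, 95.03 and 129 in control and 11.8, 76.0 and 109 after injury, and was lower in every pair.

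Some subunits went against this direction. Psmd8, a lid subunit, had 265, 334 and 168 in control and 312, 391 and 392 after injury, and was the only member higher in all 3 pairs. Its ratios were 1.18 (1.01 to 1.37), 1.17 (1.10 to 1.24) and 2.33 (1.99 to 2.76), but the groups overlapped and the test did not pass (fitted change 0.54, SE 0.51, limma, adjusted p = 0.732). Psmd1, the other large scaffold of the base, had 1035, 605 and 1664 in control and 493, 684 and 845 after injury, higher in CD140a(-)/Sca1(+) only.

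Psmd12, a lid subunit, had 430.4, 266 and 615 in control and 247, 183 and 643 after injury. Psmd13, another lid subunit, had 6.37, 8.002 and 2.69 in control and 0, 0.557 and 4.04 after injury. Both were lower in 2 pairs and slightly higher in CD140a(+)/Sca1(+), where their intervals (0.951 to 1.15 and 0.384 to 9.37) include no change.

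The activators and the inhibitor were the least uniform group. Psme1, a subunit of the ring activator that opens the barrel without ubiquitin, had 23.7, 133 and 34.4 in control and 105, 28.2 and 38.9 after injury. Its partner Psme2 had 52.9, 159 and 41.3 in control and 0, 14.9 and 117 after injury. Both were highest in control CD140a(-)/Sca1(+) cells and differed elsewhere, Psme1 being 4.44-fold higher (3.01 to 6.61) in injured CD140a(+)/Sca1(-) cells, where Psme2 was listed at 0. The 3' end of Psme1 is overlapped by Emc9 on the opposite strand, and Psme2b, a close copy of Psme2 with at most 20.99 normalized counts, makes the values of both copies uncertain.

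Psme3, the nuclear form of the activator, had 172, 142 and 145 in control and 169, 131 and 124 after injury, with ratios of 0.983, 0.918 and 0.855 whose intervals all include no change. Psme4, a large activator linked to histone turnover, had 171, 26.1 and 100.1 in control and 133, 60.4 and 38.6 after injury. Psmf1, the inhibitor, had 85.9, 100.7 and 176 in control and 0, 45.9 and 253 after injury. Psme4 was higher in injured CD140a(-)/Sca1(+) cells by a ratio of 2.31 (1.91 to 2.83) and lower in both other pairs, and Psmf1 was higher in CD140a(+)/Sca1(+) by 1.44 (1.22 to 1.71) and lower in both others.

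The assembly chaperones were all 7 higher after injury in CD140a(+)/Sca1(+), where 8390 of the 15532 genes tested were higher. Their median difference was 0.78 on the deposited log2 scale, and the median of all genes was 0.11. In the same cells the 32 tested subunits had a median of -0.62, with 25 of 32 lower, against 44.5% of all genes. In CD140a(+)/Sca1(-) all 7 chaperones were lower, against 65% of all genes (median -0.93, all genes -0.77). In CD140a(-)/Sca1(+) 6 of 7 were lower, against 61.3% (median -0.42, all genes -0.23). None of the 7 passed the injury test, and the difference between subpopulations could not be tested.

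The 19S chaperones carried most of the counts. Psmd10 had 243, 471 and 79.0 in control and 125, 186 and 268 after injury. Psmd5 had 205, 255 and 122 in control and 102, 148 and 319.5 after injury. Psmd9 had 131, 118 and 73.5 in control and 111, 85.3 and 132 after injury. In CD140a(+)/Sca1(+) the control was the lowest of the controls for all 3 genes, and the injured library the highest of the injured ones. The ratios there were 3.40 (2.72 to 4.33), 2.62 (2.18 to 3.18) and 1.79 (1.40 to 2.34). The study reports the lowest sort enrichment for this control population. Endothelial markers took 1.58% of its library, against 0.167% and 0.220% of the other controls, with 29146 of its 32713 counts from Fabp4. Red blood cell markers took 0.587% of its library, against 0.0949% and 0.0310% of the other controls. Fibro-adipogenic markers took 0.212%, against 0.456% and 0.927%. The part of this in the chaperone values was not tested.

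The 20S chaperones Psmg1 to Psmg4, which guide the alpha ring, had few reads. Their control libraries held 2.44 to 44.9 normalized counts, and in injured CD140a(+)/Sca1(-) cells Psmg1, Psmg3 and Psmg4 were listed at 0. In CD140a(+)/Sca1(+) their ratios ran from 1.65 for Psmg4 to 3.48 for Psmg1, and the intervals of Psmg3 (0.926 to 4.79) and Psmg4 (0.991 to 2.88) include no change. Pomp, the maturation factor of the 20S, which was singled out after its values were seen, had 1932, 3253 and 887 in control and 1735, 1711 and 2963 after injury. It was thus also lower in 2 pairs and higher in CD140a(+)/Sca1(+), and it did not pass the test (fitted change 0.22, SE 0.65).

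**Figure D4:**
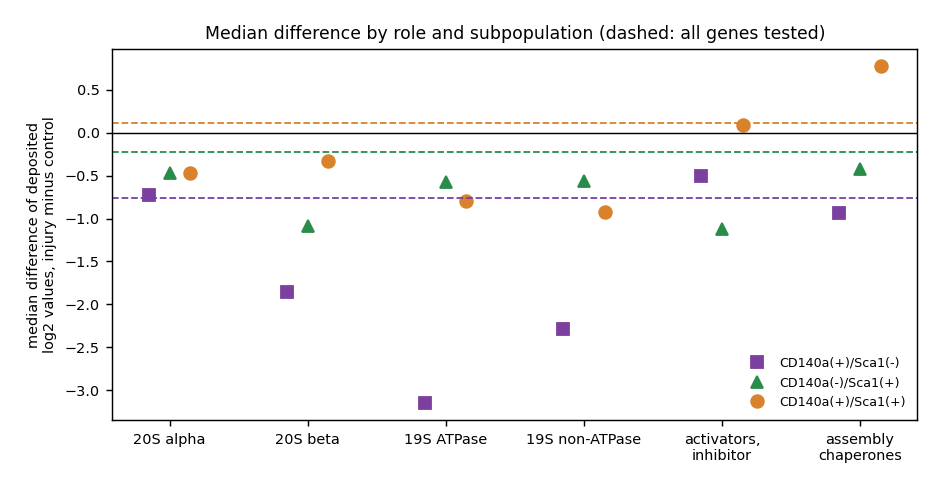
Median difference of the deposited log2 values between injury and control for the tested genes of each role, by subpopulation (square, triangle and circle), with dashed lines for all genes tested in the same pair (-0.77, -0.23 and 0.11). The circle of the assembly chaperones lies at 0.78, whereas the circles of the 20S and 19S groups lie below 0.

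Psmc3ip, which shares only the name, had 152, 164 and 76.8 normalized counts in control and 30.4, 43.0 and 156 after injury. It was lower in 2 pairs and higher in CD140a(+)/Sca1(+), and the 3' end of the gene is overlapped by Mlx.

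Over both states, few members set a subpopulation apart from the mean of the other 2. Psmf1 was higher in CD140a(+)/Sca1(+) by 2.34 (SE 0.95, limma, adjusted p = 0.986) and lower in CD140a(+)/Sca1(-) by a fitted difference of -2.47 (SE 0.95, limma, adjusted p = 0.615) on the log2 scale. Both differences include its listed 0 in the injured CD140a(+)/Sca1(-) library, where 69.1% of all genes were at 0. Its controls were closer together, at 85.9, 100.7 and 176 normalized counts, than its injured libraries, at 0, 45.9 and 253. Psmb2 was higher in CD140a(+)/Sca1(+) by 1.79 (SE 0.66, limma, adjusted p = 0.986). These are 2 of 46 members higher in CD140a(+)/Sca1(+) (4.35%), against 1.32% of all genes tested, and 1 lower in CD140a(+)/Sca1(-), against 3.73%. With a p under 0.05 alone, Psma4 and Psma5 were lower in CD140a(-)/Sca1(+), against 0.438% of all genes. Psmb3 was added among the higher members of CD140a(+)/Sca1(+), where 1.84% of all genes were, and the count in CD140a(+)/Sca1(-) stayed at 1, against 4.9%. In the remaining combinations of subpopulation, direction and rule 0 members were called, where 0.283% to 1.83% of all genes were. No member had an adjusted p under 0.05 in these contrasts, and no other gene of the table did.

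Genes that act before or around the proteasome were described from lists. Of 12 genes for the control of proteasome gene transcription, 2 fell, 0 rose and all 12 had a fitted change below 0, with a median of -0.91 on the log2 scale. Over all genes tested, 3.46% fell, 10470 of 15532 were below 0 and the median was -0.33. Without the CD140a(+)/Sca1(-) pair 0 of the 12 were called (2 had an unadjusted limma p under 0.05), 11 were below 0 and the median was -0.71. Keap1, the adaptor that marks NRF2 for degradation, had 682, 703 and 617 normalized counts in control and 0, 129.6 and 383 after injury. Mafk, a small Maf partner of NRF1 and NRF2, had 98.3, 43.3 and 53.8 in control and 0, 21.9 and 5.83 after injury. The injured libraries of both genes lay wholly below the controls.

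Of 11 other proteasome parts and partners, 1 fell, against 3.46% of all genes tested. Zfand2a, a zinc finger protein induced by proteotoxic stress that binds the proteasome, had 689, 111 and 741 in control and 55.2, 33.01 and 25.1 after injury (fitted change -3.09, SE 0.68, limma, adjusted p = 0.393). It remained called without the CD140a(+)/Sca1(-) pair. Of 10 genes for substrate delivery 1 fell, against the same 3.46%. Faf1, an adaptor of the segregase VCP, fell from 133, 73.3 and 221 to 0, 21.6 and 116. It did not pass the test without the CD140a(+)/Sca1(-) pair. Of 6 genes for ubiquitin and its activation, 0 rose and 0 fell, with a median of 0.12. Among these, Rps27a, a ribosomal fusion gene of ubiquitin, had 1266, 1969 and 899 in control and 2011, 1427 and 1967 after injury. Uba1, the enzyme that activates ubiquitin, had 1063, 943 and 3156 in control and 782, 1100.3 and 2466 after injury. Ubb, another ubiquitin gene, had 1012, 586 and 1606 in control and 903, 383 and 238 after injury, and was called lower when the CD140a(+)/Sca1(-) pair was left out.

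The marker lists of other cell types gave the makeup beside these results. Leukocyte markers summed to 94.2 to 953 normalized counts in control and 322 to 930 after injury, with Lyz2 higher and S100a9 lower of 18 tested. Of 12 fibro-adipogenic markers 7 rose, namely Col1a1, Col1a2, Col3a1, Dpt, Lum, Mfap5 and Pdgfra. Of 10 pericyte and smooth muscle markers Cspg4 rose and Myh11, Notch3 and Rgs5 fell. The endothelial markers that fell were Cdh5, Cldn5, Egfl7, Emcn, Erg, Esam, Fabp4, Flt1, Kdr, Pecam1 and Robo4, and the red blood cell markers were Hba-a1, Hba-a2, Hbb-bs and Hbb-bt. None of 10 tested muscle fiber and myogenic markers passed the 3-fold rule. By that rule 2.3% of all genes tested rose and 3.46% fell. The muscle list, led by Ckm, Myod1, Mylpf and Tnnt3, summed to at most 75.2 normalized counts in any library. The part of these shifts in the proteasome values was not tested.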

How the data were processed

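Stromal cells were sorted from control and injured muscle, and QuantSeq 3' libraries made from 20 to 100 ng of RNA were sequenced on an Ion Proton. The authors used FastX-Toolkit for trimming, STAR and BRB-seqtools for alignment to GRCm38 (mm10) in its Ensembl release 90 form, and the authors normalized with DESeq2. Per the values, the deposited table holds log2 numbers from a variance stabilizing transformation, with a floor of 2.57 for genes without reads. Its inverse gave the normalized counts used here. Of the identifiers, 22453 of 22483 were matched to GENCODE M21.

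The step between low values gave the size of 1 read in each library, and 55.9% to 63.8% of low values lay within 0.02 reads of a whole number, so that no count model was run. Against a gene at 0 a fold is a bound set by 3 reads of that library. Exact 95% intervals cover counting error only, because each subpopulation and state has a single library. The reads carry no molecular identifiers, so amplified copies count as separate reads and even the counting error may be understated.

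A gene was tested if the 80th percentile of its linear deposited values reached 8. The deposited log2 values were fitted with limma 3.58.1 (R 4.3.3), with subpopulation as block and no trend (residual degrees of freedom 2, prior 4.11), adjusted by Benjamini and Hochberg over all genes tested. Rose and fell mean a p under 0.05 and at least 3-fold. A further contrast set each subpopulation against the others' mean. Within a subpopulation only folds are given, since each state has a single library. The fit and the inversion were tested on simulated data. Python 3.11.15, numpy 2.4.6, pandas 2.3.3, scipy 1.17.1 and matplotlib 3.10.9 were also used.

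The members, the lists, the tests and the alternatives were chosen with earlier results of these data known. Every member is named, those past the test and the core subunits with values in each library. Of the other lists the members past the 3-fold rule are named, or up to 4 with the highest mean, and a gene of the ubiquitin list is not reported here. Alternatives changed the scale, pseudocount, filter, scaling, variance prior and block, and left out each pair. A filter at 100 normalized counts and sums not divided by the library total were added after seeing the data. Apart from the sort enrichment quoted above, the study's flow cytometry, histology and cultures were not used here.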

Additional observations from a re-analysis of the deposited data

Results flagged for a closer look

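The members named here were at least 2-fold higher after injury in 1 subpopulation and at least 2-fold lower in another. The share of all genes tested that meet this rule was not counted. Whether such opposite moves are more frequent among the members is therefore not known. Taken pair by pair, rises of this size covered 14.1%, 12.9% and 27.1% of all genes tested, in the order of subpopulations used above. Falls of this size covered 38%, 30.1% and 21.4%. With 1 library per subpopulation and state the difference between subpopulations was not tested, and groups of 3 libraries are too small for a check of outlying samples.

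In CD140a(+)/Sca1(+) the ratio of injury to control was 3.40 for Psmd10, 2.62 for Psmd5, 3.48 for Psmg1, 2.05 for Psmg2, 2.83 for Psme2 and 2.03 for Psmc3ip. The lowest ratios of these genes were 0.395 for Psmd10 and 0.177 for Psmg2, both in CD140a(-)/Sca1(+), while Psmd5 (0.498) and Psmc3ip (0.200) were lowest in CD140a(+)/Sca1(-). Psmg1 and Psme2 were listed at 0 in injured CD140a(+)/Sca1(-) cells, at least 6.92-fold and 17.96-fold lower than in control. In that library 55.3% of all genes tested were listed at 0. In CD140a(+)/Sca1(+) Psmg1 had 5 reads in control and 29 after injury (interval 1.33 to 11.5), and Psmg2 had 24 and 82 (1.29 to 3.38). Psme1 had a ratio of 4.44 in CD140a(+)/Sca1(-) against 0.212 in CD140a(-)/Sca1(+). For Psme4 the ratio was 2.31 in CD140a(-)/Sca1(+) against 0.386 in double positive cells. The summed share of the assembly chaperones had a ratio of 2.42 in CD140a(+)/Sca1(+) and of 0.531 in CD140a(+)/Sca1(-).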

How the results depend on the processing

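With 1 library per subpopulation and state, the depth of 2094368 reads in the shallowest library limits what a count of 0 can show, and 3 reads there equal 2.94 normalized counts. The injury comparison called 894 genes in all by the 3-fold rule. This became 426 with no filter, 423 with a filter at 100 normalized counts, 1485 with equal 75th percentiles, 1396 with median centring and 294 with an ordinary paired test. The 5 members called lower became 2 with log2 of the count plus 1, 1 with plus 0.5, 1 with no filter, 8 with a filter at 8 normalized counts, 2 with equal totals, 8 with equal 75th percentiles, 9 with quantile normalization, 2 with median centring, 8 with a mean trend and 1 with the ordinary paired test, and ran from 1 to 8 when each pair was left out. No member was called higher under any of these 15 alternatives. In both directions together, the rule called 426 of 22483 genes with no filter and 934 of 10734 with the filter at 8. It called 900 of 15532 with quantile normalization and 959 of 15532 with a mean trend. Shares of all genes called lower are not given for these settings, so their member counts show no excess by themselves. Genes with an adjusted p under 0.05 in the injury comparison, 0 as reported, became 160 higher and 17 lower with median centring, 52 and 43 with a mean trend, 3 and 12 with the filter at 8 normalized counts, 4 and 6 with quantile normalization, and 33 and 40 without the CD140a(+)/Sca1(-) pair, with 0 members among them. Without the replicate block the same 5 members were called. Psmb3 was called in 14 of the 15, all but median centring, Psmc1 in 10, Psmd3 in 9, Psmd14 in 7 and Psmd2 in 5. Psma7 and Psmd11 kept a p under 0.05 in 3 and 4 of 15. No called member changed direction. The median change of the members, -0.83 as reported, was -1.68 with equal 75th percentiles and otherwise stayed within 0.741 of it, the SD over the subpopulations. That allowance is nearly as large as the change itself and also covers the -0.10 with median centring. It therefore does not show that the size of the change is stable. The 2 members called between subpopulations became 1 with log2 of the count plus 1, with plus 0.5, with equal totals and with a mean trend, 0 with no filter and with the ordinary paired test, 7 with median centring, and 0 to 1 when a pair was left out. Shares of all genes are not given beside these counts between subpopulations, which describe the dependence on processing only. The cause of these shifts was not tested.

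For the sums, equal 75th percentiles gave ratios of 0.154, 0.488 and 0.493 for all members, in the order of subpopulations used above, 0.151, 0.498 and 0.460 for the 20S and 19S subunits, 0.296, 0.412 and 0.876 for the activators and inhibitor (the last below 1, where the share gave 1.10), and 0.193, 0.415 and 1.92 for the chaperones. The authors' scale without division by the total gave 0.578 and 0.647 for all members, 0.590 and 0.604 for the subunits, in CD140a(-)/Sca1(+) and CD140a(+)/Sca1(+), and 0.488 and 0.492 for the activators and chaperones in CD140a(-)/Sca1(+). Equal totals give the same ratios as the shares by construction.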
